A study of Mus musculus with 20 samples.

Results

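The response to interleukin 33 (IL-33) was measured in eosinophils that lack Dusp5. The cells were grown from the bone marrow of Dusp5-/- mice and, after 12 days of culture, received either medium alone or IL-33 at 25 ng/ml, with 4 hours of exposure. All arrays labelled KO (Dusp5-/-) were taken, 10 of the 20 arrays of the study. They fell into 5 untreated and 5 IL-33 arrays, and each IL-33 array was set against the untreated array with the same replicate number, which stands for the same mouse. The other 10 arrays, of Dusp5+/+ cells with and without the same treatment, served to show where the genotypes differed. They also entered the shared estimate of spread behind each SE and p-value. Both genotypes were cultured for the same number of days, and total RNA was turned into biotin-labelled cRNA for one-colour arrays. The sources used here do not give the strain, sex or age of the mice, how the knockout was made or how pure the cultures were.

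Eosinophils are granulocytes of allergic and antiparasitic immunity that store cationic granule proteins and release cytokines and lipid mediators. IL-33 is an alarm cytokine released by damaged barrier cells. Its receptor uses the adaptor MyD88 and IRAK kinases to activate NF-kB and the MAP kinases, including ERK. Dusp5 sits in the nucleus, dephosphorylates and so inactivates ERK, and is itself induced by ERK signalling, so that cells without it lack 1 of the brakes on this arm of the response.

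The deposited values were log2 levels, and 11766 of 17771 genes were bright enough to be tested. The median level of an array lay between 4.25 and 4.30 in untreated and between 4.29 and 4.32 in IL-33-treated knockout cells, and arrays of 1 group correlated at 0.987 to 0.996. Precision is limited by having 5 arrays in a group. Dusp5 itself gave levels of 4.24, 4.85, 4.51, 4.36 and 4.02 in the 5 untreated knockout arrays and 4.99, 5.06, 4.68, 4.88 and 5.15 after IL-33, against means of 8.15 ± 0.26 (SD, n = 5) and 9.77 ± 0.35 in the Dusp5+/+ groups. Every knockout array thus lay below the wild-type means, and the 2 knockout groups overlapped. The probe set may lie outside the deleted part of the gene, in which case it does not check the deletion. The defining granule transcripts of eosinophils, Prg2 (major basic protein) and Epx (eosinophil peroxidase), were bright, with untreated levels of 13.76 ± 0.05 (SD, n = 5) and 13.34 ± 0.24 on arrays whose highest value was 13.99. Transcripts of mast cells and basophils were bright as well, Cpa3 at 12.71 ± 0.07 and Mcpt8 at 11.68 ± 0.12.

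IL-33 changed 7703 of the 11766 tested genes in knockout cells, and 6005 of the 17771 measured genes were too dim to be tested. At an adjusted p under 0.05 (limma with mouse as a block, Benjamini-Hochberg over all tested genes), 2761 genes rose, 23.5% of those tested, and 4942 fell, 42.0%. Falls were more numerous, and their median was -0.44 on the log2 scale against 0.37 for the rises. Changes of at least 2-fold were nearly balanced, with 374 rises (3.18% of tested genes) and 358 falls (3.04%). Among larger changes rises predominated, with 119 rises against 16 falls of at least 4-fold, 41 against 1 of at least 8-fold and 14 against 0 of at least 16-fold. The median over all tested genes was -0.08.

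For most genes the response ran the same way in every mouse. Of the 7703 genes called, 7072 moved in the same direction in 5 of 5 mice. The 5 untreated and 5 IL-33 levels did not overlap for 365 of the 374 rises and 347 of the 358 falls of at least 2-fold, compared with 38.5% of all tested genes. Picking genes by the size of their difference itself favours groups that do not overlap. These arrays are of bulk RNA, in which fewer cells of a type and less RNA per cell cannot be told apart.

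**Figure D1:**
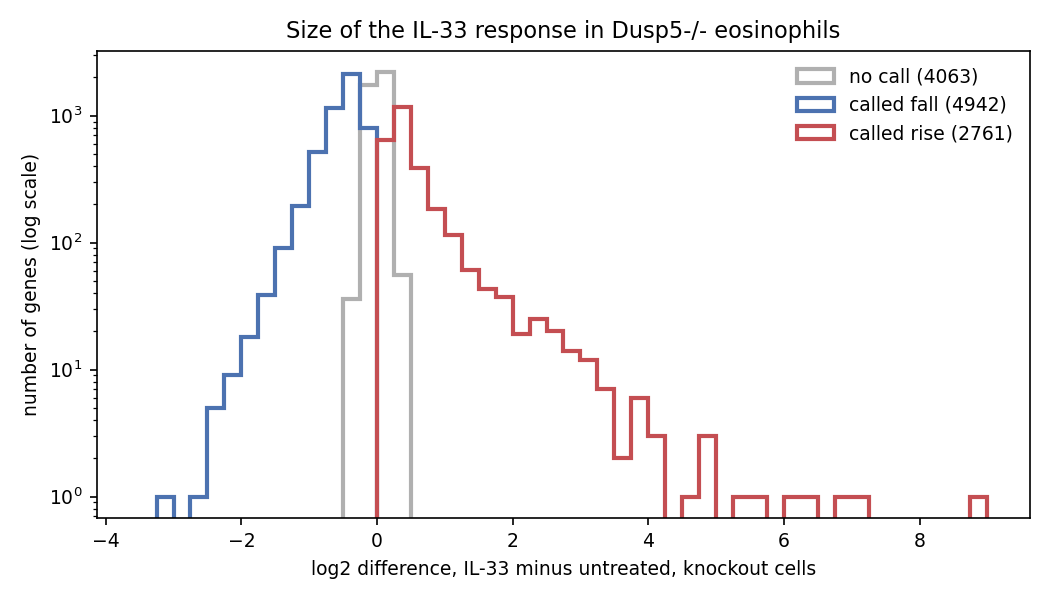
Number of tested genes (vertical axis, log scale) by log2 difference between IL-33 and untreated knockout cells (horizontal axis, bins of 0.25), with called rises, called falls and genes without a call in separate colours. The falls are more numerous and end at -3.10, whereas the rises extend to 8.84.

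The range of the response is shown mouse by mouse by 6 transcripts. Ptgs2, the inducible cyclooxygenase that starts prostaglandin synthesis, read 2.94, 3.05, 2.70, 3.57 and 3.58 in the 5 untreated arrays and 11.90, 11.84, 12.29, 11.99 and 12.01 after IL-33. The IL-33 levels lay close together and far above every untreated level. The log2 difference was 8.84 ± 0.20 (limma SE, n = 5 knockout mice, adjusted p = 6.3e-12 in limma). Here and below, the SE of a difference rests on a spread shared by both genotypes over all 20 arrays. It is not the SE of the 5 knockout mice alone. Because 4 of the 5 untreated arrays lay below the 40th percentile of their array, which stands in for background, the rise is given as at least 341-fold.

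Il13, the type 2 cytokine that drives mucus and airway reactivity, rose from 5.28, 5.68, 5.36, 5.96 and 5.66 to 10.04, 9.98, 11.13, 10.71 and 10.87. The groups were far apart, with mice 1 and 2 lowest after IL-33. The difference was 4.96 ± 0.19 (adjusted p = 6.8e-10), 31.0-fold. Csf2, which encodes GM-CSF, a survival factor of eosinophils, read 3.02, 3.53, 3.18, 3.64 and 3.28 untreated and 5.53, 5.58, 7.35, 6.67 and 6.47 with IL-33. It was near background before treatment, the same 2 mice were again lowest after it, and the within-mouse differences ran from 2.05 to 4.17. Its log2 difference was 2.99 ± 0.24 (adjusted p = 3.0e-07), at least 6.59-fold.

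Ccl24, which encodes eotaxin-2, a chemoattractant for eosinophils themselves, read 4.90, 4.33, 4.30, 4.03 and 4.08 without and 7.57, 7.35, 7.88, 7.75 and 7.94 with IL-33. Mouse 1 started highest and rose least, and no levels overlapped. The difference was 3.37 ± 0.16 (adjusted p = 3.4e-09), 10.3-fold. Osbpl5, a lipid transfer protein of membrane contact sites, fell from 7.80, 7.63, 7.81, 7.70 and 7.57 to 5.21, 5.50, 5.20, 5.20 and 5.45, a difference of -2.39 ± 0.10 (adjusted p = 1.1e-09). Tsc22d3, which encodes the glucocorticoid-induced leucine zipper GILZ, an inhibitor of NF-kB and AP-1, fell from 9.13, 9.36, 9.14, 9.33 and 9.37 to 7.09, 7.31, 6.96, 7.21 and 7.20. Its 5 within-mouse differences were all between -2.04 and -2.18, the tightest of the 6 genes, and gave -2.11 ± 0.07 (adjusted p = 1.4e-10).

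**Figure D2:**
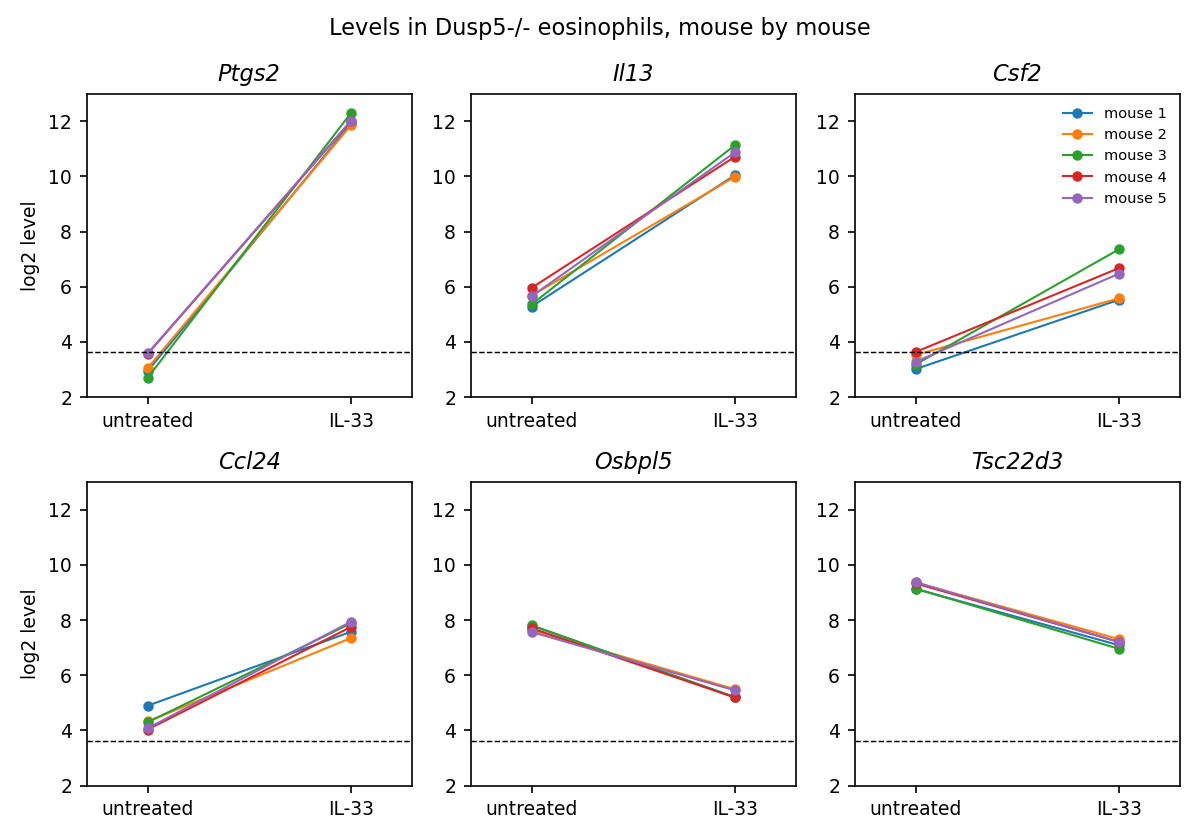
Log2 level (vertical axis) of Ptgs2, Il13, Csf2, Ccl24, Osbpl5 and Tsc22d3 in untreated and IL-33-treated knockout cells, with 1 line per mouse (n = 5) and a dashed line at the mean 40th percentile of the 10 arrays. All lines rise in the first 4 genes and fall in Osbpl5 and Tsc22d3, and no untreated level overlaps an IL-33 level.

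The 15 largest rises included 6 cytokines and chemokines, Il13 among them. After Ptgs2 came the neutrophil chemoattractant Cxcl2, which rose by 7.01 ± 0.13 (129-fold) from untreated levels of 4.49 to 5.71 to IL-33 levels of 11.89 to 12.39. Il1b, the pyrogenic cytokine, rose by 6.84 ± 0.13 (5.46 to 6.74 before, 12.75 to 13.10 after) and Il1a by 4.98 ± 0.20 from levels below the 40th percentile on 2 of 5 arrays. Il6, which drives acute inflammation, rose by 5.30 ± 0.06, from untreated levels of 7.69 to 8.11 to IL-33 levels of 13.14 to 13.37. Tnf rose by 4.04 ± 0.15. None of these genes overlapped between the groups.

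The others among the 15 encode regulators, enzymes, a kinase and surface receptors. Nfkbiz, the nuclear IkB protein that NF-kB needs at Il6 and related genes, rose by 6.26 ± 0.13, and Zc3h12a, the RNase Regnase-1 that destroys Il6 mRNA, by 3.98 ± 0.10. Pim2, a survival kinase, rose by 5.72 ± 0.07. The early activation antigen Cd69 rose by 6.22 ± 0.08, Acod1, which makes itaconate, by 4.80 ± 0.15 and the lipid phosphodiesterase Smpdl3b by 4.70 ± 0.10. The inhibitory receptor Pilra (4.10 ± 0.11) and the C-type lectin receptor Clec4e (4.00 ± 0.09) completed the 15. Untreated and IL-33 levels did not overlap for any of them. The 15 were picked for the size of their difference, and 38.5% of all tested genes did not overlap either.

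Of the 15 genes, 3 carry a match to the NF-kB binding consensus (kappaB) in the 250 bases before the start site in the RefSeq table of assembly GRCm38.p6, and they are printed to show what the motif counts further on rest on. The match is in capitals. In Cxcl2, 2 overlapping matches lie on opposite strands, 1 of them at bases 96 to 87 before the start, in Il6 it spans bases 44 to 35 before the start, and in Smpdl3b 155 to 146.
Cxcl2: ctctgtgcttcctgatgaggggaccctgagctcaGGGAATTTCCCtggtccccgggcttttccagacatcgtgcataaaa
Il6: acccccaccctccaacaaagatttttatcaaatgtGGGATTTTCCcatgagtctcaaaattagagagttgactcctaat
Smpdl3b: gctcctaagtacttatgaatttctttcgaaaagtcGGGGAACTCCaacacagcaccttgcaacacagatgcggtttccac
These stretches lie at chr5:90903768-90903847 (plus strand), chr5:30013035-30013113 (plus strand) and chr4:132757282-132757361 (minus strand). Nfkbiz and Cd69 had no promoter in the table.

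The kappaB consensus was found in 12.3% of the 398 promoters of genes that rose at least 2-fold, against 2.34% of the 384 promoters of genes that fell as much, 4.65% of promoters of all tested genes and 3.90% of all 32851 promoters of the same length. Among the 36 promoters of genes that rose at least 8-fold it was in 6, or 16.7%. The AP-1 motif TGANTCA was in 5 of those 36 (13.9%), in 7.04% of the promoters of at least 2-fold rises, 4.95% of those of falls, 4.81% of those of tested genes and 6.75% of all. TATAAA was in 9 of the 36 (25.0%), but in 7.79% of the promoters of at least 2-fold rises, 6.77% of those of falls, 6.80% of those of tested genes and 12.4% of all. The STAT motif TTCNNNGAA was in 8.29% of the promoters of at least 2-fold rises, 5.73% of those of at least 2-fold falls, 6.03% of those of tested genes and 7.02% of all promoters. The forkhead core TGTTTAC was in 2.76% and 2.08% of the promoters of rises and falls, in 2.48% of those of tested genes and in 3.17% of all. CACGTG was in 8.29% and 9.38% of the promoters of rises and falls, 8.10% of those of tested genes and 6.02% of all. The serum response CArG box was in 1.51% of the promoters of rises, 0.781% of falls, 1.18% of tested genes and 1.47% of all. For GCGTGGGCG the shares were 1.01%, 1.56%, 0.941% and 0.536% in the same order, and for TGACGTCA 2.76%, 1.82%, 2.36% and 1.55%. Motifs were searched on both strands and may overlap. A match is a description of letters in a window, not a binding site.

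**Figure D3:**
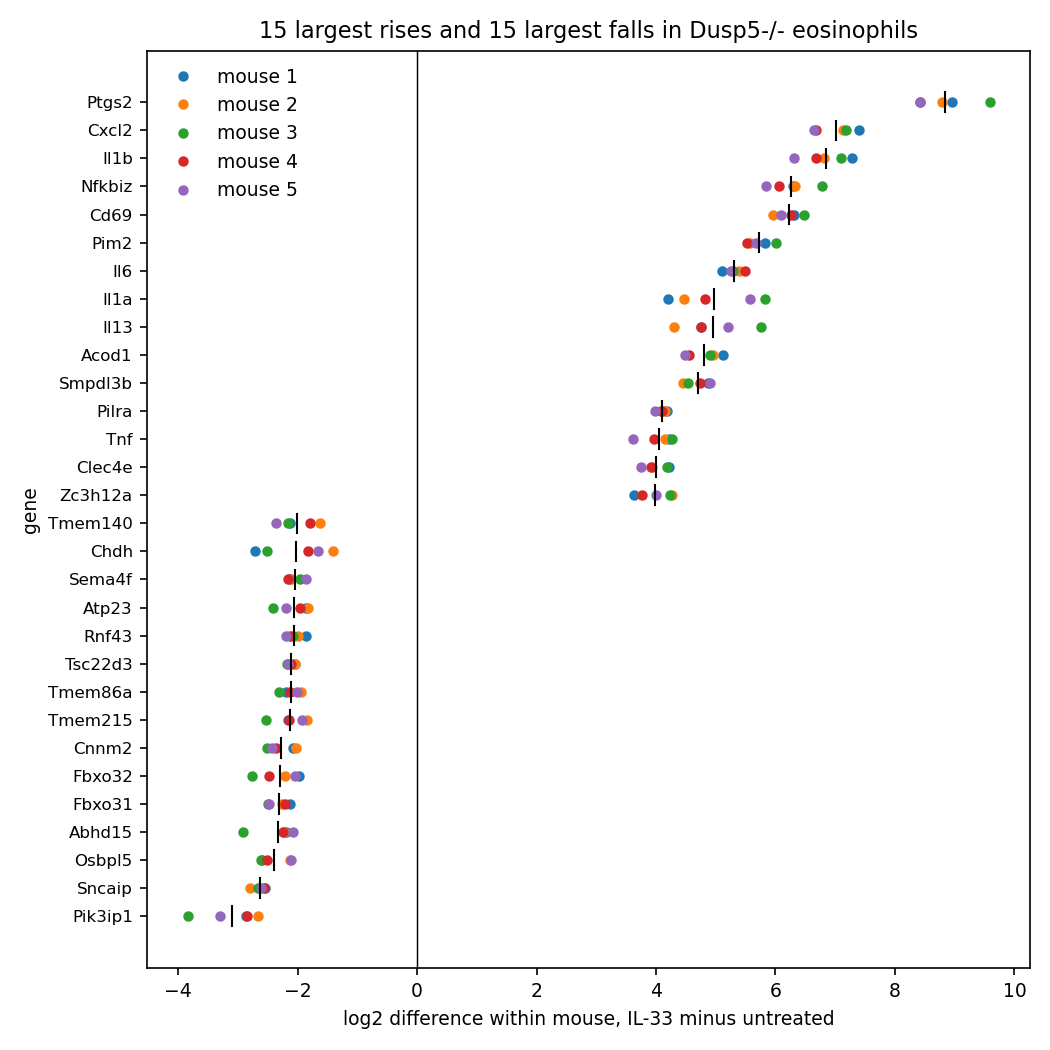
Within-mouse log2 difference, IL-33 minus untreated (horizontal axis), of the 15 largest rises and the 15 largest falls in knockout cells, with 1 point per mouse (n = 5) and a bar at the mean. The rises span 3.62 to 9.59 and the falls -3.84 to -1.41, with every mouse on the same side of 0.

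NF-kB subunits and IkB proteins were the list with the largest median, 2.32 over 11 tested genes against -0.08 over all tested genes. In it 10 genes rose and 1 fell, and 9 rose at least 2-fold. Besides Nfkbiz, the inhibitor IkB-alpha gene Nfkbia rose by 2.70 ± 0.06, the IkB-like coactivator Bcl3 by 2.62 ± 0.05 and the subunit Relb by 2.61 ± 0.09. Of 19 regulators of the A20, TRAF and cIAP class, 12 rose and 2 fell. Traf1, an adaptor of TNF receptors, rose by 3.25 ± 0.12 (at least 9.03-fold), the kinase Ikbke by 2.81 ± 0.08 and Tnfaip3, the ubiquitin editor A20 that shuts NF-kB down, by 2.24 ± 0.07, while the adaptor Tank was at 0.03 ± 0.06.

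In the list of adaptor and kinase genes of the IL-33 receptor, 10 of 15 rose and 4 fell. Map3k8, the kinase Tpl2 that links NF-kB to ERK, was below the 40th percentile on 5 of 5 untreated arrays (2.78 to 3.45) and reached 6.72 to 7.37, a rise of at least 11.1-fold. Irak3, the IRAK that brakes MyD88 signalling, rose by 2.35 ± 0.09, whereas Sigirr, an inhibitory receptor of the same family, fell by 0.84 ± 0.08. Irak1 was at 0.05 ± 0.04. Of 13 genes that control decay of cytokine mRNA, 8 rose and 4 fell, with Zc3h12c at 3.78 ± 0.07 beside Zc3h12a and Zc3h12d at -1.20 ± 0.12.

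Genes read as output and feedback of ERK, the kinase pathway that Dusp5 limits, rose in 17 of 23 cases and fell in 3, with a median of 1.22 and 12 rises of at least 2-fold. Phlda1 rose by 3.71 ± 0.11, the transcription factors Egr3 and Egr1 by 3.24 ± 0.28 and 2.98 ± 0.18 and Hbegf, a ligand of the EGF receptor, by 3.01 ± 0.17. Of 9 other MAP kinase phosphatases tested, 5 rose and 3 fell. Dusp16 rose by 2.95 ± 0.10, Dusp2 by 1.45 ± 0.13, the ERK-specific Dusp6 by 1.08 ± 0.06 and Dusp4 by 1.04 ± 0.06. Dusp5 rose by 0.56 ± 0.12 (adjusted p = 0.00137), 1.47-fold, in the cells that carry the knockout. In the cascade from RAF to ERK itself, 4 of 15 genes rose and 6 fell, near the shares of 23.5% and 42.0% over all tested genes. None of the 15 changed at least 2-fold, as did 3.18% (rises) and 3.04% (falls) of all tested genes. The largest change in the cascade was in Mknk2, a kinase downstream of ERK, which fell by 0.86 ± 0.06.

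AP-1 and ATF subunits rose in 11 of 15 cases. Fosl1, which encodes Fra-1, rose by 2.20 ± 0.09, Batf3 by 1.85 ± 0.13 and Batf by 1.56 ± 0.06. Fos was the 1 subunit that fell, by 1.56 ± 0.06, from 9.56 to 9.85 untreated to 7.92 to 8.48, with no overlap. Fosl2, at 0.01 ± 0.07, had no call. Both tested NR4A receptors rose, Nr4a1 by 2.59 ± 0.13 and Nr4a3 by 1.42 ± 0.11. Interferon regulatory factors were split, 5 up and 5 down, with Irf4 up by 3.01 ± 0.12 and Irf1 down by 0.84 ± 0.06.

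The feedback list of the JAK-STAT pathway rose almost whole. Of 11 tested genes, 10 rose, none fell and the median was 1.64. SOCS proteins block cytokine receptors and JAK kinases, and of these Socs3 rose by 3.95 ± 0.13 and Cish by 3.35 ± 0.11. The survival kinases Pim2 and Pim3 (3.30 ± 0.10) belong to the same list. Among 13 tested JAK kinases and STAT factors, 2 rose and 7 fell, 15.4% and 53.8%, against 23.5% and 42.0% over all tested genes. Both rises were at least 2-fold, in Jak2 (1.16 ± 0.07) and Tyk2 (1.02 ± 0.06). Stat3 was at -0.09 ± 0.13 and Stat5b at -0.53 ± 0.05.

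Secreted mediators rose broadly. Of 13 CC chemokines, 10 rose and none fell, with a median of 1.11. The monocyte and T cell attractants Ccl4 and Ccl3 rose by 3.77 ± 0.09 and 3.10 ± 0.07 and Ccl7 by 2.97 ± 0.08. Ccl6, with an untreated mean of 13.3, had a difference of 0.06 ± 0.05 and no call. It lay near the highest value on the arrays, 13.99, which leaves little room to see a rise. Of 11 CXC chemokines, 7 rose and 1 fell (0 without mouse 3, 4 or 5), led after Cxcl2 by Cxcl3 (3.93 ± 0.09) and the T cell attractant Cxcl10 (2.56 ± 0.14). Their receptors mostly went down, with 7 falls and 3 rises among 11, among them Ccr2 (-1.17 ± 0.09) and the eotaxin receptor Ccr3 (-0.47 ± 0.08).

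Among 6 tested type 2 cytokines and colony-stimulating factors, Il13, Csf2 and Il4 (1.28 ± 0.13) rose, and Csf1, at -0.07 ± 0.07, had no call. Of 11 measured members of this list, 5 were below the 40th percentile on all 10 knockout arrays. Of 13 interleukin 1 family and inflammasome genes, 7 rose and 5 fell, 53.8% and 38.5%, against 23.5% and 42.0% over all tested genes. The rises included the receptor antagonist Il1rn (3.17 ± 0.06) and the sensor Nlrp3 (1.23 ± 0.08). Of 8 genes of the interleukin 6 family, 5 rose (62.5%) and 1 fell (12.5%, or 0 genes without mouse 2, 3 or 5). Osm was at 1.69 ± 0.10 and the shared receptor chain Il6st at 1.44 ± 0.06. Of 21 TNF ligands and receptors, 13 rose (61.9%) and 3 fell (14.3%). The costimulator Tnfrsf9 rose by at least 6.09-fold and Cd40 by 1.37 ± 0.09. Il15, from the list of other cytokines, fell by 1.23 ± 0.11.

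Of 12 tested enzymes of eicosanoid synthesis, 2 rose and 6 fell. Besides Ptgs2, the phospholipase gene Pla2g4a, whose product releases arachidonic acid, rose by 1.44 ± 0.06. The falls included Alox15, a lipoxygenase abundant in eosinophils (-0.62 ± 0.05), and the thromboxane synthase Tbxas1 (-0.67 ± 0.05). Of 17 receptors for lipid mediators and chemoattractants, 4 rose and 6 fell, 23.5% and 35.3%, against 23.5% and 42.0% over all tested genes. The prostacyclin receptor Ptgir rose by 1.37 ± 0.09, whereas the sphingosine 1-phosphate receptor S1pr1, which guides exit from tissue, fell by 1.86 ± 0.15 and the leukotriene B4 receptor Ltb4r1 by 1.32 ± 0.06.

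Surface molecules that engage other cells rose in part. Of 16 checkpoint ligands and costimulators, 9 rose (56.2%) and 5 fell (31.2%, or 3 genes without mouse 4 or 5). Cd80 rose at least 3.10-fold, Pdcd1lg2 by 1.73 ± 0.08 and Havcr2 by 1.62 ± 0.08, and Cd86 was at -0.03 ± 0.07. Icam1 rose by 1.76 ± 0.05. Integrins, selectins and their ligands gave 7 rises and 7 falls in 19, 36.8% each, against 23.5% and 42.0% over all tested genes. Among the falls was Itgb5, by 1.28 ± 0.07. Cd14, the lipopolysaccharide coreceptor, rose by 2.41 ± 0.07 and Tlr2 by 1.11 ± 0.08. The tetraspanin Cd81 rose by 1.36 ± 0.11 and its relative Tspan13 fell by 1.40 ± 0.06.

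Anti-apoptotic genes rose, and pro-apoptotic genes were mixed. All 4 tested anti-apoptotic members of the Bcl2 family rose, with a median of 0.88. Bcl2 went from 3.59 to 3.96 untreated to 5.36 to 6.11 with IL-33, a rise of 1.92 ± 0.19, and Bcl2l1, which encodes Bcl-xL, from 7.64 to 7.96 to 8.93 to 9.35, a rise of 1.28 ± 0.07. Neither gene overlapped between groups. Mcl1, bright at 10.22 ± 0.24 (SD, n = 5) untreated, rose by 0.30 ± 0.05, with overlapping groups but a rise in 5 of 5 mice (adjusted p = 0.10 without mouse as a block). Of 11 pro-apoptotic members, 6 rose and 2 fell. Bmf and Bcl2l11, which encodes Bim, rose by 2.06 ± 0.14 and 2.02 ± 0.08, Pmaip1 (Noxa) by 1.36 ± 0.05, and Bbc3 (Puma) fell by 1.18 ± 0.07. Casp4, the caspase that senses lipopolysaccharide in the cytosol, rose by 2.09 ± 0.09 and the caspase-8 inhibitor Cflar by 1.01 ± 0.05.

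Metabolic and stress lists went both ways, with rises in antioxidant genes and in arginine enzymes. Of 13 serine, asparagine and one-carbon enzymes, 9 fell and 2 rose (69.2% and 15.4%). The integrated stress response gave 9 falls and 6 rises in 16 (56.2% and 37.5%). Endoplasmic reticulum folding gave 11 falls and 5 rises in 21 (52.4% and 23.8%). Over all tested genes, 42.0% fell and 23.5% rose. Of 19 genes of the Nrf2 pathway, 14 rose and 1 fell, with a median of 0.70. The sulfiredoxin Srxn1 rose by 2.22 ± 0.09, the heme oxygenase Hmox1 by 1.95 ± 0.09, the cystine transporter Slc7a11 by 1.84 ± 0.10 and the thioredoxin reductase Txnrd1 by 1.80 ± 0.08. Arg1 and Arg2, which split arginine, rose by 3.17 ± 0.10 and 2.05 ± 0.06, and the arginine transporter Slc7a2 by 2.65 ± 0.08. The amino acid transporters as a list gave 7 rises and 9 falls in 22, 31.8% and 40.9%, against 23.5% and 42.0% over all tested genes. Glucose uptake rose at Slc2a6 (1.76 ± 0.06) and Slc2a1 (1.11 ± 0.06) in a glycolysis list of 9 rises and 6 falls, with Ldha at 0.12 ± 0.05 and no call.

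Lists of protein production and turnover differed in direction, and rises outnumbered falls in ribosome biogenesis and the proteasome. Of 51 genes of ribosome biogenesis, 30 rose and 9 fell, none 2-fold, led by Rrs1 (0.90 ± 0.05), Tsr1 and Utp4 (0.71 ± 0.05 and 0.70 ± 0.05). Of 34 proteasome subunits, 18 rose and 5 fell. The standard subunit Psmd7 rose by 0.74 ± 0.06, and Psmb9, a subunit of the immunoproteasome, fell by 1.09 ± 0.04. Of 31 cytoplasmic ribosomal proteins, 2 rose and 8 fell (1 rose without mouse 2 or mouse 3, and 5 fell without mouse 4 or mouse 5), with a median of -0.07 and Rplp2 at 0.01 ± 0.04. Myc, which drives ribosome production, rose by 1.22 ± 0.06 while the Max partners that oppose it, Mxd1, Mxd4 and Mxi1, fell by 1.63 ± 0.09, 1.40 ± 0.06 and 0.91 ± 0.06.

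**Figure D4:**
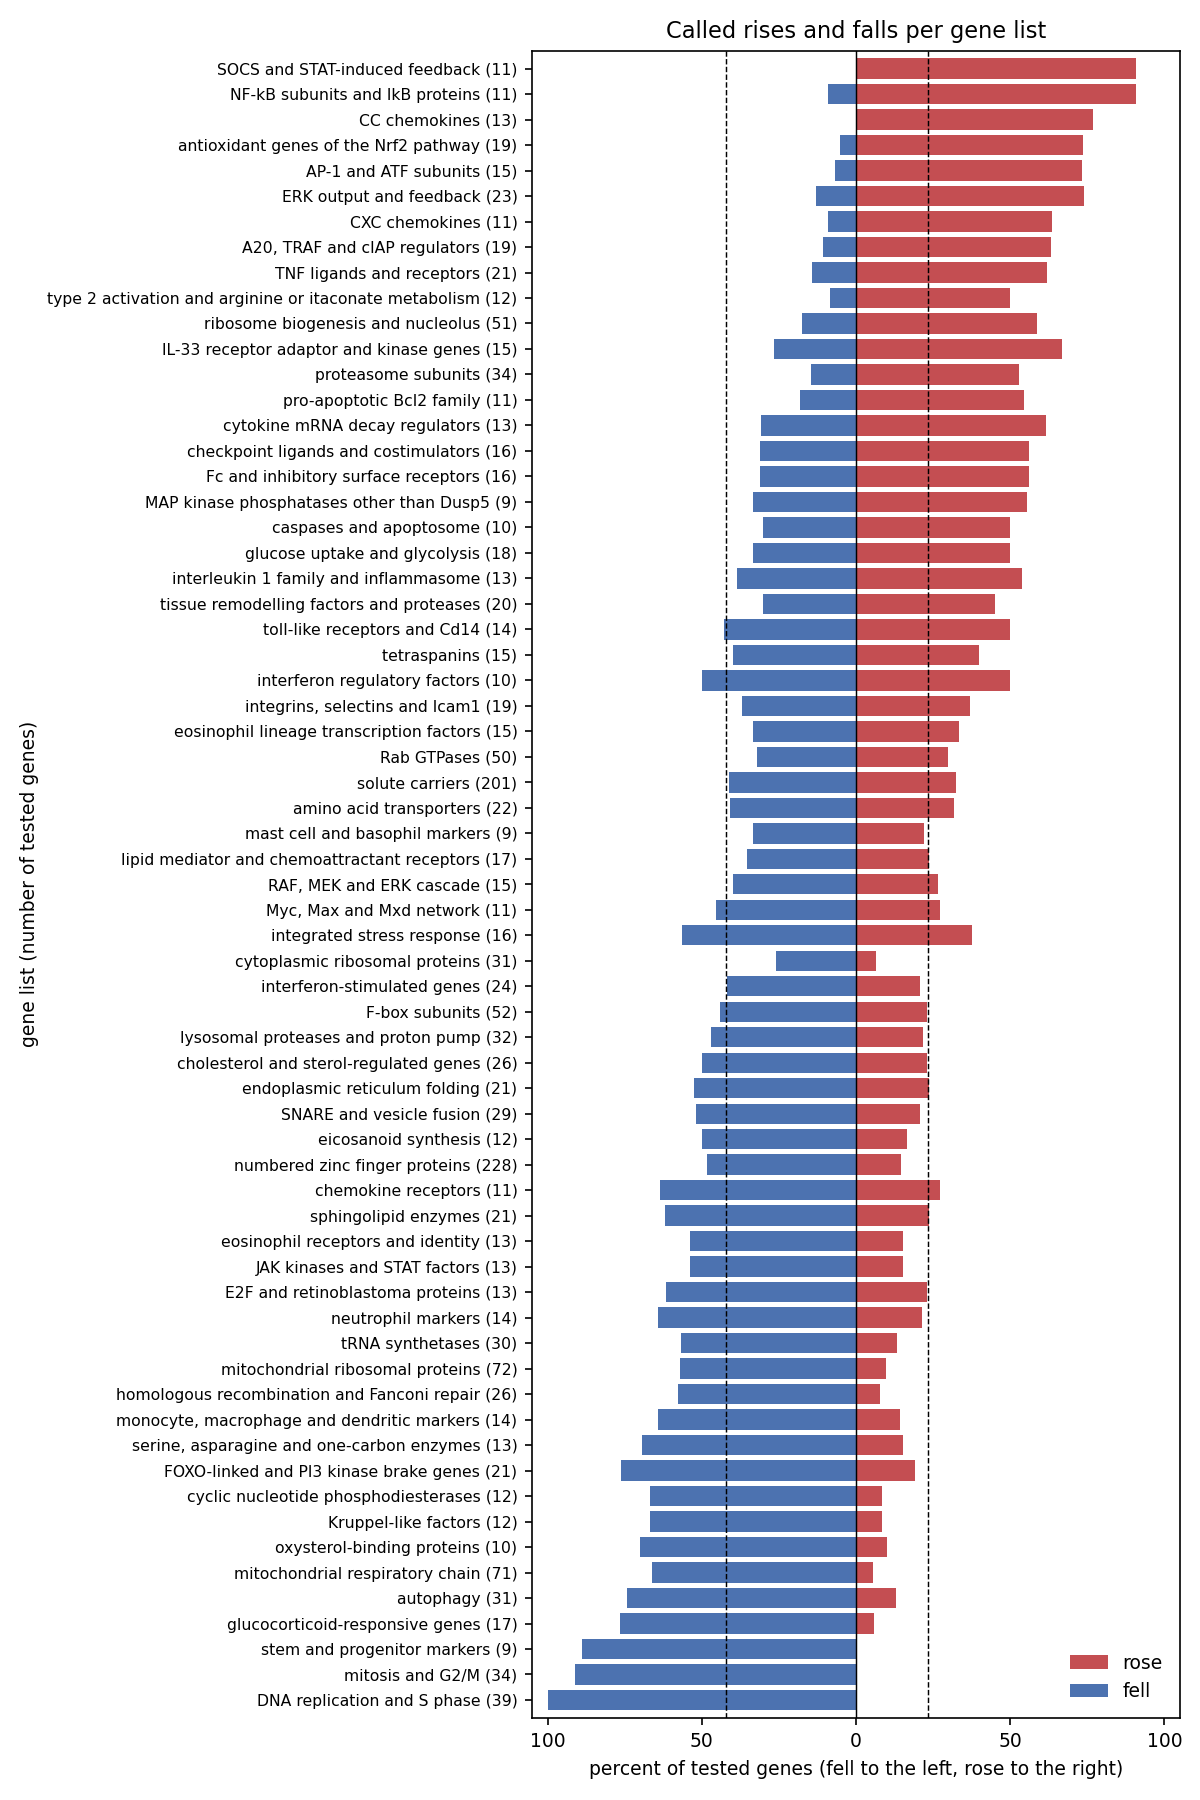
Percent of tested genes that rose (right) and fell (left) at an adjusted p under 0.05 in knockout cells for gene lists with at least 9 tested members, sorted by the difference, with the number tested beside each name and dashed lines at the shares over all tested genes, 23.5% and 42.0%. Lists of JAK-STAT feedback, NF-kB and CC chemokine genes sit at the top, and DNA replication, where 39 of 39 fell, at the bottom.

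The falls were led by Pik3ip1, an inhibitor of PI3 kinase, with 7.95, 7.88, 7.78, 7.98 and 7.82 before and 5.09, 5.22, 3.94, 5.13 and 4.51 after IL-33. The untreated mice were nearly equal and the treated ones spread out, with mouse 3 lowest. Its difference of -3.10 ± 0.14 (adjusted p = 2.3e-09), 8.60-fold, was the 1 fall of at least 8-fold. Sncaip, which encodes synphilin-1, fell by 2.64 ± 0.12, at least 5.66-fold, since 3 of 5 IL-33 arrays were below the 40th percentile. Next came Osbpl5, the hydrolase-fold protein Abhd15 (-2.33 ± 0.10), the F-box proteins Fbxo31 (-2.31 ± 0.09) and Fbxo32 (-2.30 ± 0.12), which direct ubiquitin ligases, and Cnnm2, a protein of magnesium transport (-2.28 ± 0.10).

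The remainder of the 15 largest falls lay between -2.12 and -2.02. They were Tmem215, Tmem86a (a lysoplasmalogenase), Tsc22d3, Rnf43 (a ligase that removes Wnt receptors), Atp23 (a mitochondrial protease), the semaphorin Sema4f, the choline dehydrogenase Chdh and Tmem140. Groups did not overlap for any of the 15, which were picked for the size of their difference, compared with 38.5% of all tested genes. Tmem140 is the 1 gene among them with a forkhead core, in capitals, 116 to 110 bases before its start, at chr6:34862995-34863071 (plus strand, GRCm38.p6, RefSeq). Its sequence is printed as the counterpart of the kappaB matches above, and this motif was no more frequent in the promoters of falls than in all promoters.
Tmem140: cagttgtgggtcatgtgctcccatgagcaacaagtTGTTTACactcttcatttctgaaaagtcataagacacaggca
Sncaip and Fbxo32 had no promoter in the table.

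Pik3ip1 and Fbxo32 belong to a list of genes linked to FOXO factors and to the restraint of PI3 kinase, in which 16 of 21 fell, 4 rose and the median was -0.61. The cell cycle inhibitor Cdkn1b (p27) fell by 1.34 ± 0.12. Cited2, a transcriptional coregulator, went the other way, up by 1.64 ± 0.11. Of 17 genes known to respond to glucocorticoids, 13 fell and 1 rose. After Tsc22d3, Rgs2, a brake on G protein signalling, fell by 1.82 ± 0.07 and the kinase Sgk1 by 1.19 ± 0.07. Errfi1, an inhibitor of the EGF receptor that is also on the ERK list, rose by 2.73 ± 0.09, and Cebpd was at 0.04 ± 0.07 with no call.

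Genes of cell division fell together. All 39 tested genes of DNA replication fell, with a median of -0.70, 6 of them at least 2-fold. The licensing factors Cdt1 and Cdc6 fell by 1.65 ± 0.06 and 1.37 ± 0.08, the cyclin Ccne2 by 1.32 ± 0.14 and the clamp loader Rfc1 by 1.15 ± 0.12. Of 34 genes of mitosis, 31 fell, none rose and the median was -0.55, with the phosphatase Cdc25b and the checkpoint kinase Ttk at -1.05 ± 0.11 and -1.03 ± 0.12. Without mouse as a block, 6 of these 34 passed the test. Of 26 genes of homologous recombination and Fanconi repair, 15 fell and 2 rose, 57.7% and 7.69%, against 42.0% and 23.5% over all tested genes. Their median was -0.28, and none changed at least 2-fold. E2f2 and E2f8, factors of the replication programme, fell by 1.85 ± 0.08 and 1.31 ± 0.08. Stem and progenitor markers moved in the same direction, with 8 falls and no rise in 9, including Sox4 (-1.45 ± 0.06), Hoxa9 (-1.26 ± 0.09) and Kit (-1.07 ± 0.19). The sum of these markers on a linear scale was 1976 to 2233 in untreated and 1338 to 1647 in IL-33 arrays, without overlap. Its part in the falls of cell division genes was not tested.

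Several housekeeping lists leaned down by smaller amounts. Of 31 autophagy genes, 23 fell and 4 rose, a median of -0.37, with Atg14, Ulk1 and Map1lc3b at -1.06 ± 0.09, -1.06 ± 0.07 and -1.05 ± 0.05. Of 72 mitochondrial ribosomal proteins, 41 fell and 7 rose, and of 71 respiratory chain subunits, 47 fell and 4 rose, with medians of -0.20 and -0.18. Mrps35 fell by 1.03 ± 0.05 and Sdha, the flavoprotein of complex II, by 0.60 ± 0.05, whereas Ndufa1, at -0.08 ± 0.04, had no call. Of 30 tRNA synthetases, 17 fell and 4 rose (2 without mouse 1, 2 or 4). Of 228 numbered zinc finger genes, 110 fell and 33 rose, 48.2% and 14.5%, set against 42.0% and 23.5% over all tested genes. Kruppel-like factors fell in 8 of 12 cases and rose in 1 (2 without mouse 3), with Klf2 and Klf11 both at -0.94 ± 0.07.

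Several other families held members that moved strongly in opposite directions. Of 12 cyclic nucleotide phosphodiesterases, 8 fell and Pde4b alone rose, by 2.12 ± 0.13. Of 21 sphingolipid enzymes, 13 fell and 5 rose, and Smpdl3b rose 25.9-fold while the acid sphingomyelinase Smpd1 fell by 1.18 ± 0.06. Of 32 lysosomal proteases and pump subunits, 15 fell and 7 rose, 46.9% and 21.9%, against 42.0% and 23.5% over all tested genes. Ctsc, which activates granule proteases, rose by 1.95 ± 0.08 and Ctsl fell by 0.80 ± 0.09. Of 26 genes of cholesterol synthesis and sterol control, 13 fell and 6 rose, with Insig1, which restrains the pathway, up by 1.78 ± 0.10 and the last enzyme of synthesis, Dhcr7, down by 1.38 ± 0.06. Of 24 interferon-stimulated genes, 10 fell and 5 rose (8 without mouse 2), 41.7% and 20.8%, near the shares of 42.0% and 23.5% over all tested genes, and the GTPase Gbp2 rose by 2.83 ± 0.11. Of 50 Rab GTPases, 15 rose and 16 fell, from Rab20 at 2.58 ± 0.09 to Rab7b at -1.85 ± 0.06. Osbpl5 had the largest fall of 10 oxysterol-binding proteins, of which 7 fell and 1 rose.

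Among genes that define eosinophils, several receptors fell, and the main granule genes had no call. Of 13 tested receptor and identity genes, 7 fell and 2 rose, 53.8% and 15.4%, against 42.0% and 23.5% over all tested genes. Of 4 tested granule genes, 1 rose and 0 fell. Of the granule genes, Prg2 was at 0.02 ± 0.04 and Epx at -0.08 ± 0.05 (adjusted p = 0.681 and 0.152 in limma), with overlapping groups. Both lay near the highest value on the arrays, 13.99, which leaves little room to see a rise. The interleukin 5 receptor chain Il5ra fell from 7.99, 8.10, 7.73, 8.40 and 8.19 to 7.19, 7.23, 6.48, 7.17 and 6.96, by 1.08 ± 0.08. Siglecf, an inhibitory lectin that marks eosinophils, fell from 10.19 to 10.89 to 9.86 to 10.18, by 0.61 ± 0.07. Neither overlapped between groups. Ccr3 fell in 5 of 5 mice within widely spread levels, 8.53 to 9.76 before and 8.23 to 9.21 after, and its call was lost without mouse as a block (adjusted p = 0.27). The adhesion receptor Adgre1 (F4/80) rose by 0.66 ± 0.05. Among factors of the lineage, Cebpb rose by 1.09 ± 0.06 and Gfi1 fell by 1.51 ± 0.10, with Spi1 and Xbp1 at -0.02 ± 0.05 and -0.04 ± 0.05.

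Markers of other cells were read on the same arrays. The linear sum of 14 neutrophil markers was 17061 to 26280 in untreated and 15714 to 23147 in IL-33 arrays, that of monocyte, macrophage and dendritic markers 6314 to 9000 and 7569 to 10478, and that of mast cell and basophil markers 15684 to 17487 and 14413 to 16099. The ranges overlapped between the groups, but within mice the neutrophil and the mast cell and basophil sums were lower with IL-33 in 5 of 5 mice and the monocyte sum was higher in 5 of 5. Lymphocyte markers summed to 188 to 250 and 152 to 199, with 3 of 10 below the 40th percentile on all knockout arrays, and no rise among the 5 tested. The sum of eosinophil markers was 38621 to 43392 and 37514 to 43002. Both sums were lower with IL-33 in 5 of 5 mice. Of the monocyte list 2 genes rose and 9 fell, the rise being largest in Cd14, from a mean log2 level of 8.83 to 11.24. Cd14 is part of the monocyte sum, and the sum without it was not computed. Of the mast cell and basophil list 2 rose and 3 fell, 22.2% and 33.3%, against 23.5% and 42.0% over all tested genes. The Fc receptor chain Ms4a2 rose by 0.91 ± 0.10. The falls were Kit (-1.07 ± 0.19), the Fc receptor chain Fcer1a (-0.48 ± 0.05) and Mcpt8 (-0.36 ± 0.05). The part of such cells in the rises of cytokines, several of which they also make, was not tested.

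Some genes passed from below to above the 40th percentile on all arrays, or the reverse. Of these, 21 were below it on 5 of 5 untreated arrays and above it on 5 of 5 IL-33 arrays, and 22 did the opposite. Beyond Map3k8, the switched-on genes included the transcription factor Spic (at least 4.99-fold), the gap junction protein Gja1 (4.74), Ch25h, which makes 25-hydroxycholesterol (4.40), the membrane protein Tpbg (4.32), the Ras activator Rasgrp1 (3.69), the succinate receptor Sucnr1 (3.41), the TNF receptor family member Tnfrsf25 (2.40) and the pentraxin Ptx3 (2.29), each a lower bound. The switched-off genes had dim starting levels, and their bounds were at most 1.70-fold. They included the BMP signalling inhibitor Smad6 (1.44) and the nuclear receptor Rora (1.67). These switched genes other than Map3k8 and Tnfrsf25 were named after their values were seen.

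The 5 mice gave responses of similar size. The slope of each mouse's differences on the mean of the other 4, over all tested genes, was 0.94, 0.92, 1.07, 0.96 and 0.98. Mouse 3 had the largest slope and also the largest median among the at least 2-fold falls, -1.39 against -1.18 to -1.26 in the others. The medians of the at least 2-fold rises were closer, 1.53 to 1.64. Single genes varied more. The at least 2-fold rises with the widest range over mice were Csf2, Cxcl5 and Egr3. Cxcl5 read 3.70 to 3.96 untreated, and reached 4.41 in mouse 1 and 5.36 to 6.34 in the others. Egr3 rose by 4.27 in mouse 1 and by 2.40 in mouse 2. The falls with the widest range were Chdh, Rhebl1 and Pik3ip1. Chdh fell by 2.71 in mouse 1 and by 1.41 in mouse 2, and Rhebl1, a relative of the mTORC1 activator Rheb, by 2.02 in mouse 3 and by 0.67 in mouse 2.

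The response was also set against that of Dusp5+/+ cells, which shares no array with it. No gene differed between the genotypes at an adjusted p under 0.05 (limma contrast of both responses, 0% of 11766 tested genes, lowest adjusted p 0.0939), although 1633 did at an unadjusted p under 0.05. With mouse as a random effect the count was 26, and with a variance trend and robust moderation it was 160. Across genes the knockout response was the larger one more often. Among 335 genes whose mean response over both genotypes was at least 2-fold up, 252 (75.2%) rose more in knockout cells, with medians of 1.68 and 1.46 in knockout and wild-type cells. Among 285 such genes that went down, 255 (89.5%) fell more in knockout cells, with medians of -1.29 and -1.09. Over all tested genes the shares were 60.5% of 5144 whose mean response was up and 75.1% of 6622 whose mean response was down. These shares carry no test, since genes of the same mice are not independent.

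Of the 6 genes given mouse by mouse, the cytokines differed most. Csf2 rose by 2.99 in knockout and by 1.40 in wild-type cells, a difference of 1.59 ± 0.34 (SE, adjusted p = 0.116 in limma), and Il13 by 4.96 and 3.58, a difference of 1.37 ± 0.27 (adjusted p = 0.116). Neither passed the adjusted threshold. Ptgs2 rose by 8.84 and 8.06 and Ccl24 by 3.37 and 3.00, and the differences of 0.77 ± 0.28 and 0.37 ± 0.23 had adjusted p of 0.253 and 0.496. Osbpl5 fell by 2.39 and 1.95 and Tsc22d3 by 2.11 and 1.69, differences of -0.44 ± 0.14 and -0.42 ± 0.10, with adjusted p of 0.212 and 0.136. Among the 15 largest rises the difference was small against the response in Pim2 (a difference of 0.13 ± 0.10), Pilra (0.15 ± 0.15) and Smpdl3b (-0.18 ± 0.14). Fosl1 had the lowest adjusted p, 0.0939 in limma, and rose by 2.20 in knockout and by 1.35 in wild-type cells, a difference of 0.86 ± 0.12. Dusp5 itself rose by 0.56 ± 0.12 against 1.62 ± 0.12 in wild-type cells (adjusted p of the difference 0.109 in limma). List medians in knockout and wild-type cells were 2.32 and 1.73 for NF-kB and IkB genes, 1.22 and 1.10 for ERK output and feedback, -0.70 and -0.56 for DNA replication and -0.80 and -0.51 for stem and progenitor markers. Of 65 lists with at least 9 tested genes, the median was farther from 0 in knockout cells for 45 and in wild-type cells for 20. Among the latter were the interleukin 1 family (0.29 and 0.51), the Myc network (-0.12 and -0.40) and ribosome biogenesis (0.21 and 0.23). The difference between genotypes was not tested for any list.

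**Figure D5:**
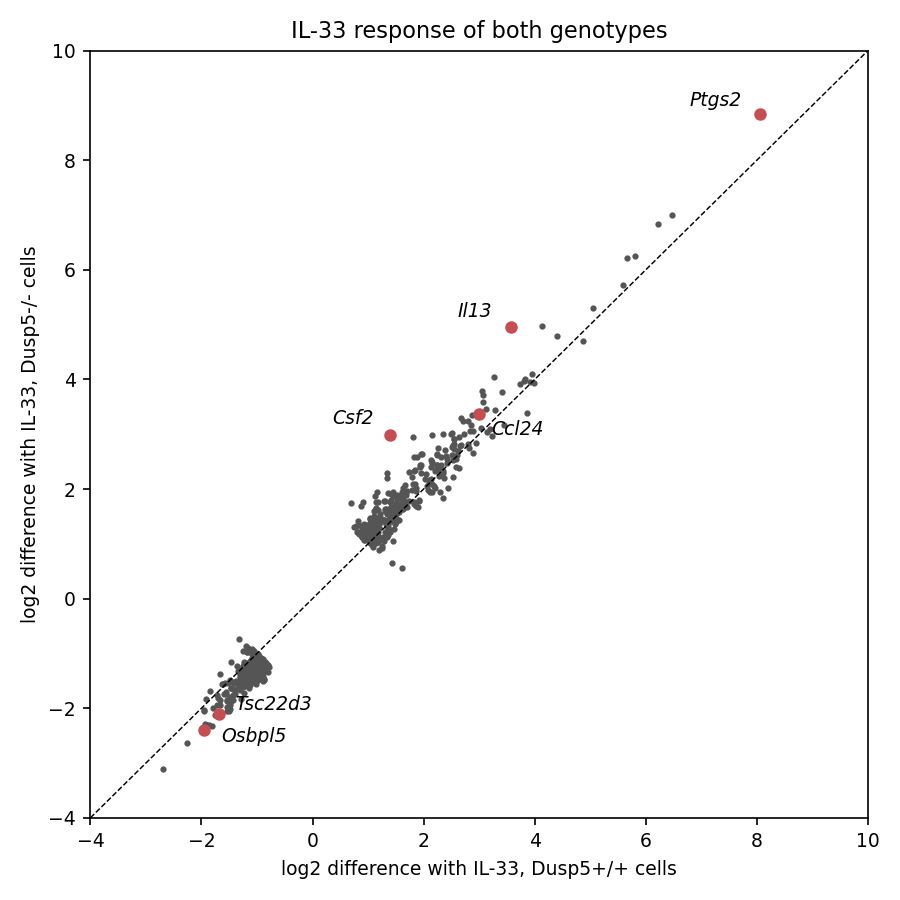
Log2 difference between IL-33 and untreated cells in Dusp5+/+ (horizontal axis) and Dusp5-/- cells (vertical axis) for genes whose mean response over both genotypes was at least 2-fold, with 1 point per gene (mean of 5 mice each) and a dashed line of equality. Points lie near the line, more of them beyond it in the knockout direction, and the 6 genes described mouse by mouse are named.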

How the data were processed

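The authors deposited values on a log2 scale for 20630 probe sets on 20 arrays, with the unit read from the values and no background correction or normalization given in the sources used here. Probe sets were named through the platform annotation. Of these, 17826 had 1 gene symbol, 91 several and 2711 none, and 17675 of the first kind matched a RefSeq gene. For 54 genes with several probe sets the brightest was used. A gene was tested when it exceeded the 40th percentile of the array (3.56 to 3.68 on knockout arrays) on at least 5 arrays, and that percentile replaced dimmer values in folds given as lower bounds. Where the labels' genotype and treatment set the groups, limma 3.58.1 in R 4.3.3 fitted all 20 arrays with mouse as a fixed block (8 residual degrees of freedom). A call is a Benjamini-Hochberg adjusted p under 0.05 over 11766 genes. The script was tested on simulated data. Knockout arrays that share a replicate number deviated together from their group means (correlation 0.457 to 0.693), and the series text gives 5 mice per genotype, so the number was taken as the mouse. Only the spread between these mice is measured.

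Named genes were the 15 largest rises and falls, up to 4 called and 2 uncalled members per list with the largest difference or the highest mean, the 10 largest called genotype differences in each direction (none was called), the 3 rises and 3 falls of at least 2-fold with the widest range over mice, and 15 genes always named. Members and lists were chosen with earlier results of these data known, and no list was tested as a set. Alternatives changed the block, the arrays fitted, the filter, the scaling and the variance model, and left out each knockout mouse.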

Additional observations from a re-analysis of the deposited data

Results flagged for a closer look

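The levels of the 182 genes named in the text were examined within the 5 untreated and within the 5 IL-33-treated knockout arrays for an array that stood apart by Dixon's criterion, which chance alone meets in about 1 in 20 groups. Of 364 sets of 5 levels, 14 met it, against about 18 at that rate, and 8 of the 14 were arrays of mouse 3.

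Mouse 3 was lowest for Bmf before and after IL-33 (4.74 and 6.63, others 5.09 to 5.18 and 7.20 to 7.32), for Ltb4r1 before and after (9.95 and 8.49, others 10.13 to 10.17 and 8.82 to 8.94), and after IL-33 for Cdkn1b (4.62, others 5.03 to 5.14) and Spi1 (10.81, others 10.97 to 11.02). It was highest after IL-33 for Acod1 (12.10, others 11.96 to 12.00) and Ccl3 (13.35, others 13.14 to 13.18).

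Mouse 1 was lowest untreated for Bcl2l1 (7.64, others 7.87 to 7.96) and Egr1 (7.70, others 8.12 to 8.26), and highest after IL-33 for Ttk (5.58, others 4.43 to 4.76) and Ndufa1 (12.21, others 12.11 to 12.14). Dusp16 was highest after IL-33 in mouse 4 (8.96, others 8.82 to 8.85) and Traf1 highest untreated in mouse 5 (3.89, others 3.45 to 3.54). None of these arrays changed a call of its gene when its mouse was left out.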

How the results depend on the processing

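Of 182 named genes, none reversed under any of the 13 alternatives, and 2351 of 2362 values kept their side of the threshold. Ccr3 lost its call without the replicate block and with a random replicate block (adjusted p = 0.27 and 0.063) and Mcl1 without it (0.10), while Cpa3, Ldha, Epx, Ndufa1 or Irak1 gained one under other filters, scalings or variance models, with differences of -0.13 to 0.18. The numbers of rises, falls and at least 2-fold changes stayed within 1.5 times of the reported ones: 2228 rises and 3909 falls without the replicate block, 2135 and 4447 with the 60th percentile filter, 3236 and 4265 after quantile normalization (424 and 289 of at least 2-fold), and 2498 to 2590 and 4567 to 4752 when a mouse was left out. Without the replicate block fewer falls were called in several lists, 8 of glucocorticoid-responsive genes instead of 13, 4 of chemokine receptors instead of 7 and 6 of mitosis genes instead of 31.

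The number of genes that differed between genotypes was 0 without the replicate block, with no filter and after quantile normalization or median centring, 26 with a random replicate block, 5 with the 60th percentile filter, 160 with a variance trend and robust moderation, and 0 to 1 when a mouse was left out (1 without mouse 1 or mouse 5). The cause was not tested. Rises from, and falls to, levels near the 40th percentile are limited by signal over background, since 31 of the rises of at least 2-fold had an untreated mean below it and 14 of the falls an IL-33 mean below it.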
